A study of Mus musculus with 2 samples.

Results

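The genes described here are those of the calcium/calmodulin-dependent protein kinases (CaM kinases) of the kinase II, kinase IV and kinase kinase types, the 2 protein inhibitors of kinase II and the kinase-like protein CaMKv. They were taken by symbol: Camk2a, Camk2b, Camk2d, Camk2g, Camk2n1, Camk2n2, Camk4, Camkk1, Camkk2 and Camkv. These are 10 of the 55536 annotated genes in the tables, with 92 of the 141862 annotated transcripts, and all 10 were found. The rule for choosing them used no measured value. RNA came from the left side of the cerebral cortex of 2 female mice of 36 days, strain B6CASTF1/J, the hybrid offspring of C57BL/6J and CAST/EiJ parents. No mouse was treated or mutant, and the mice form 1 group with 1 library each, called replicate 1 and replicate 2. Each library was made from 300 ng of total RNA after ribosomal RNA was reduced, kept the strand of the RNA and carried synthetic spike-in RNAs. With 1 group of 2 mice there is no comparison of conditions and no p-value, and errors are the SD over the mice.

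Kinase II is a holoenzyme of many subunits, encoded by Camk2a (alpha), Camk2b (beta), Camk2g (gamma) and Camk2d (delta). Each subunit has a kinase domain, a regulatory segment that binds calmodulin, a linker of variable length and a hub domain that joins the subunits. After calcium/calmodulin binds, subunits phosphorylate each other and stay active when calcium falls, a step known for its part in long-term potentiation of excitatory synapses. Splicing changes mainly the linker: a short exon in the alpha, gamma and delta genes encodes a nuclear localisation signal, and the beta linker binds filamentous actin. Camk2n1 and Camk2n2 encode small proteins that bind the active kinase and block it. Camkk1 and Camkk2 phosphorylate and activate kinase I and kinase IV, and Camk4, kinase IV, acts largely in the nucleus on the transcription factor CREB.

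The exons that differ between kinase II transcripts carry much of what follows, so those that the results turn on are shown here. They were read 5′ to 3′ on the coding strand from the GENCODE M21 transcripts (mm10), and all are coding exons. The nuclear localisation exon of Camk2d (chr3:126802937-126802969, plus strand) and its counterpart in Camk2g (chr14:20747819-20747851, minus strand) are both 33 nt long and have the same letter at 26 of 33 positions. Capitals mark the positions at which the pair differs.
Camk2d, 33 nt: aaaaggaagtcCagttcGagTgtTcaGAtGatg
Camk2g, 33 nt: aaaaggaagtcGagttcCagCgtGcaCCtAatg

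Camk2d also has 2 exons of 73 nt in the part that encodes the kinase domain, of which an annotated transcript uses either the upstream one (chr3:126770785-126770857) or the downstream one (chr3:126771774-126771846). They are shown because each mouse used both, and they share 50 of 73 letters. Capitals again mark the differences.
Camk2d, upstream 73 nt: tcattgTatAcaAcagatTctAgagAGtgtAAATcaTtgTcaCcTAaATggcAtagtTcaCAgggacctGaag
Camk2d, downstream 73 nt: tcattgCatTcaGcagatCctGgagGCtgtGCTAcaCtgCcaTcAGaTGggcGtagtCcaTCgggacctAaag

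Of the linker exons that beta transcripts almost always held, 2 have aligned counterparts in the delta and gamma genes. They are shown to set the same stretch of linker side by side: the long linker exon of Camk2b (chr11:5982501-5982572, minus strand), Camk2d (chr3:126805857-126805916) and Camk2g (chr14:20745792-20745860), and the next exon of Camk2b (chr11:5981070-5981114), Camk2d (chr3:126808208-126808249) and Camk2g (chr14:20744604-20744648). Capitals mark letters of the Camk2d or Camk2g exon that do not match the Camk2b exon in a global alignment. For the long exon 43 of 72 alignment columns were the same in Camk2d and 51 of 77 in Camk2g. For the next exon the counts were 34 of 45 and 32 of 45.
Camk2b, 72 nt: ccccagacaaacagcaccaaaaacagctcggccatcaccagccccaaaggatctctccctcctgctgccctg
Camk2d, 60 nt: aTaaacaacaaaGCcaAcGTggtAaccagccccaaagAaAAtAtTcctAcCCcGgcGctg
Camk2g, 69 nt: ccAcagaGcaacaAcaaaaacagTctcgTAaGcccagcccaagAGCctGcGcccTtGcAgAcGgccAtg
Camk2b, 45 nt: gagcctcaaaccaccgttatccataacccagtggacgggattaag
Camk2d, 42 nt: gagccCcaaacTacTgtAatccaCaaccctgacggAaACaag
Camk2g, 45 nt: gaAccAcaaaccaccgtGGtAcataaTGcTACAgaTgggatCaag

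The libraries held 29417186 and 35188766 expected counts, which are estimated reads per gene. The 10 genes had between 1644 and 91263 counts in a library, and together took 0.638% and 0.647% of all counts. In the gene table every member's count was a whole number in both libraries, so none of those reads was divided with another gene. In a second quantification of the same libraries, also deposited, some members' summed counts were not whole (82480.4 and 95545.4 for Camk2a, for example), so some reads were divided with other genes there. Genes that overlap 5 of the members in the annotation were at 0.68 TPM or below. The labelled tissue was checked with markers: all 5 markers of cortical excitatory neurons were expressed, with summed levels of 795 TPM in both mice. None of 3 cerebellar markers reached 1 TPM in both libraries, and their sums were 0.74 and 0.25 TPM. Markers of the thalamus summed to 50.3 and 35.4 TPM, most of it Rora, and those of the hippocampus to 46.7 and 53.2 TPM, most of it Wfs1. Markers of oligodendrocytes summed to 820 and 610 TPM, those of astrocytes to 154 and 146 TPM, those of inhibitory neurons to 239 and 221 TPM, those of microglia to 68.4 and 65.5 TPM and those of endothelium to 48.2 and 39.6 TPM.

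All 10 genes were expressed, with means from 43.9 TPM for Camkk1 to 1087 TPM for Camk2a (TPM gives a length-corrected share of all transcripts). Camk2a, Camk2n1, Camk2b, Camk2g, Camkv and Camkk2, 6 of the 10, had a mean above 100 TPM, a level reached by 872 of the 12754 expressed nuclear protein-coding genes. In tissue, fewer cells of a type and less RNA per cell cannot be told apart, so these levels describe the cortex sample as a whole.

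Camk2a led the kinase II genes. Its gene (ENSMUSG00000024617.16, chr18:60925618-60988152, plus strand) had 1176 TPM in replicate 1 and 998 TPM in replicate 2, and its mean was the 2nd highest of the expressed nuclear protein-coding genes. Camk2b (ENSMUSG00000057897.14, chr11:5969644-6066362, minus strand) had 276 and 261 TPM, a mean of 268 ± 10.5 (SD, n = 2). Camk2g (ENSMUSG00000021820.18, chr14:20734875-20794088, minus strand) had 178 and 153 TPM. Camk2d (ENSMUSG00000053819.16, chr3:126596302-126846326, plus strand), known as the main form in heart, had 46.6 and 58.1 TPM. In each mouse the order was therefore alpha, beta, gamma, delta, and no 2 of these 4 genes overlapped in level. Camk2d was the only one of the 4 with the higher TPM in replicate 2.

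The inhibitor genes were far apart in level. Camk2n1 (ENSMUSG00000046447.3, chr4:138454314-138460123, plus strand) had 638 and 579 TPM and ranked 43rd among the expressed protein-coding genes. Camk2n2 (ENSMUSG00000051146.2, chr16:20619215-20621287, minus strand) had 73.8 and 80.6 TPM. Both have 1 annotated transcript with a short coding region, 234 bases in Camk2n1 and 237 in Camk2n2, but the Camk2n1 transcript is 4444 bases long and the Camk2n2 transcript 1291. In TPM, Camk2n1 exceeded Camk2n2 by 8.65 times in replicate 1 and 7.18 times in replicate 2, a mean of 7.91 ± 1.04 (SD, n = 2). In expected counts, where the longer transcript weighs more, the ratio was 28.8 ± 3.78. The inhibitor genes summed to 712 and 659 TPM, beside 1677 and 1471 TPM for the 4 kinase II genes. That is 0.436 ± 0.0168 inhibitor transcripts per kinase II transcript. The ratio depended on the models counted. Over protein-coding transcripts whose annotated ends are complete it was 0.560 in replicate 1 and 0.582 in replicate 2. Camk2n1 alone stood at 0.561 ± 0.0262 of the level of Camk2a.

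Of the kinase kinases, Camkk2 (ENSMUSG00000029471.13, chr5:122731170-122779409, minus strand), which also activates the energy sensor AMPK, was the higher. It had 122 and 111 TPM, against 46.7 and 41.2 TPM for Camkk1 (ENSMUSG00000020785.17, chr11:73019008-73042073, plus strand). The Camkk2 to Camkk1 ratio was 2.60 and 2.69, a mean of 2.65 ± 0.0594 (SD, n = 2). Camk4 (ENSMUSG00000038128.7, chr18:32934931-33191228, plus strand) had 93.2 and 73.3 TPM. Camkv (ENSMUSG00000032936.13, chr9:107935674-107949691, plus strand), whose product binds calmodulin but lacks kinase activity and is known for a role in dendritic spines, had 144 and 143 TPM. Camkv was the most even of the members in TPM as deposited, a scale on which the median log2 ratio of all genes tested was -0.19. In counts scaled to library size its log2 ratio of replicate 2 over replicate 1 was 0.25. In TPM it exceeded Camk4 by 1.54 times in replicate 1 and 1.96 times in replicate 2.

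**Figure D1:**
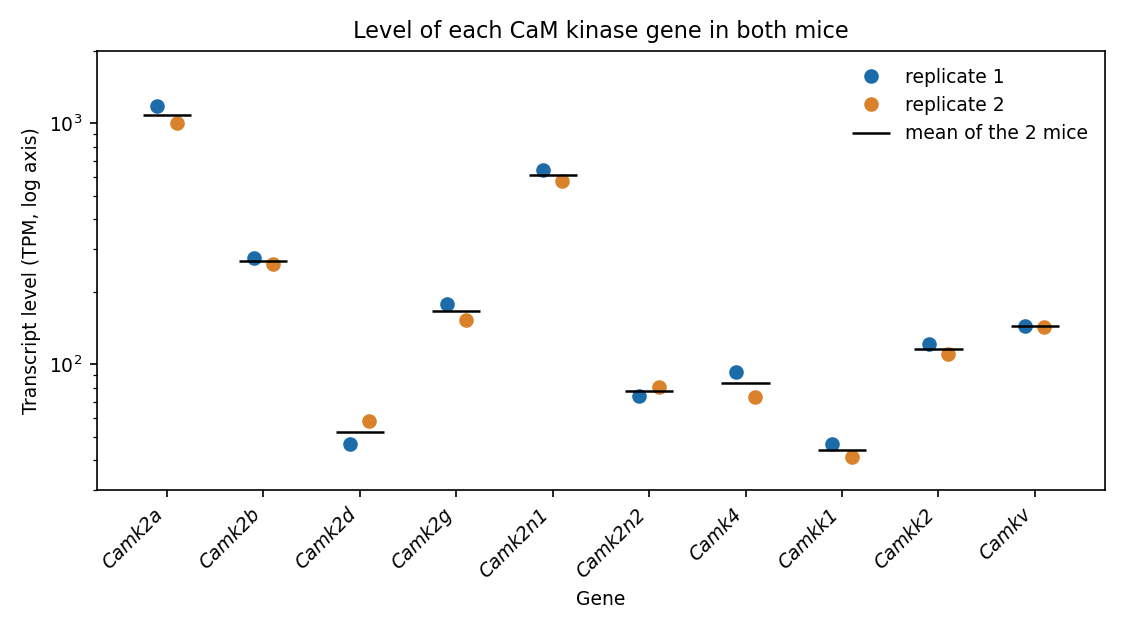
Level of each of the 10 genes in TPM on a log axis, with 1 point per mouse and a line at the mean of the 2 mice. Camk2a and Camk2n1 stand above the rest, from 579 to 1176 TPM, and Camk2d and Camkk1 are lowest, from 41.2 to 58.1 TPM.

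From high to low the means ran Camk2a, Camk2n1, Camk2b, Camk2g, Camkv, Camkk2, Camk4, Camk2n2, Camk2d and Camkk1. Neighbours in this order overlapped between mice in 2 places. Camk4, at 73.3 to 93.2 TPM, covered the range of Camk2n2, and the lower value of Camk2d, 46.6 TPM, was just under the higher value of Camkk1, 46.7 TPM. The other neighbours did not overlap. The second quantification gave higher TPM for all 10 genes and the same order of means. In it Camkv, at 224 and 259 TPM, overlapped Camkk2, at 203 and 238 TPM, and Camk2n2, at 93.6 and 113 TPM, overlapped Camk2d, at 74.1 and 99.9 TPM.

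As shares of the summed TPM of the kinase II genes, Camk2a made up 69.0% ± 1.59, Camk2b 17.1% ± 0.917, Camk2g 10.5% ± 0.151 and Camk2d 3.37% ± 0.828 (SD, n = 2 for each). The alpha to beta ratio was 4.26 in replicate 1 and 3.82 in replicate 2. Camk2d stood at 0.261 of the Camk2g level in replicate 1 and 0.379 in replicate 2. The alpha share held between 67.2% and 71.6% under 5 measures of abundance. The gamma share did not: it was 6.53% ± 0.0431 by expected counts, where long transcripts weigh more, and 12.1% ± 0.200 in the second quantification. Counting only protein-coding transcripts whose annotated ends are complete gave gamma 7.29% ± 0.101 and beta 21.2% ± 1.14. The order alpha, beta, gamma, delta was the same under all 5 measures in both mice.

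**Figure D2:**
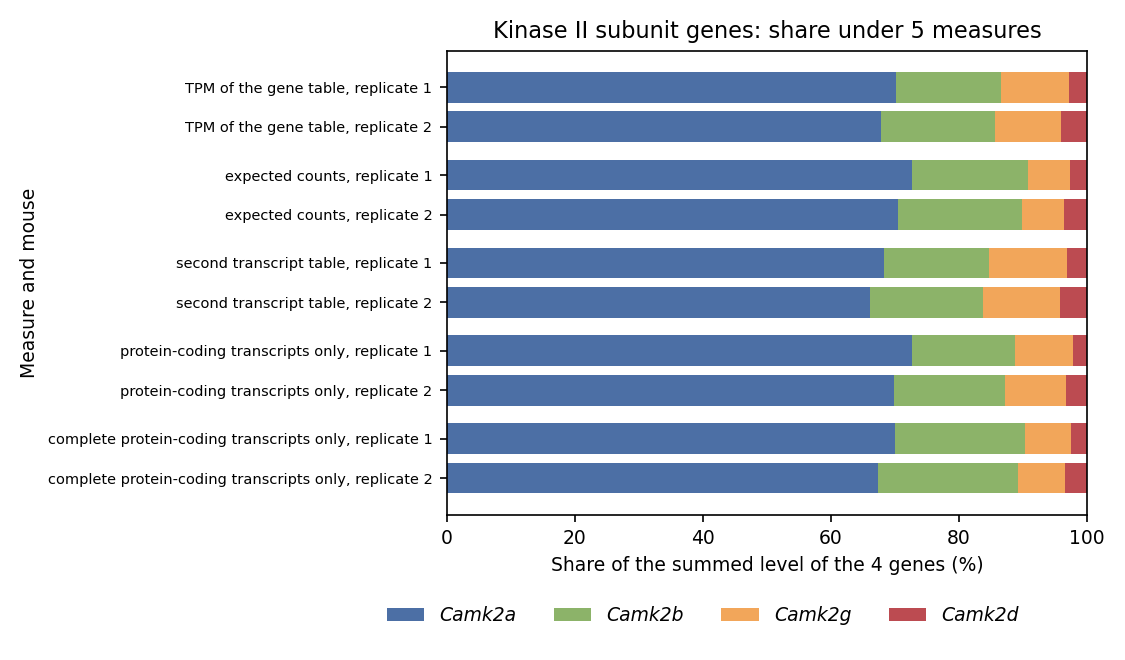
Share of each kinase II gene in the summed level of the 4 genes, in percent, as stacked bars for each mouse under 5 measures of abundance. Camk2a takes about the same share in every bar, from 66.2% to 72.7%, while the Camk2g segment ranges from 6.50% to 12.2%.

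Transcript tables show which annotated models carried each gene. Of the 8 members with more than 1 transcript, 6 had a leading transcript with at least 50% of the gene's TPM in both mice. Among 11552 expressed protein-coding genes with several transcripts this held for 64%, so the members stood near the background. Both quantifications named the same leading transcript by mean in 8 of 8 members, against 76.9% of such genes. The exception within mice was Camk2g, where Camk2g-201 led in replicate 1 with 22.2% against 19.4% for Camk2g-203, and Camk2g-203 led in replicate 2 with 22.5% against 20.2%.

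Camk2b was carried almost entirely by Camk2b-209, a transcript of 4023 bases with 88.9% and 92.8% of the gene's TPM. Camk2a was led by Camk2a-203 with 64.2% and 65.1%. A further 24.0% and 23.4% of Camk2a went to Camk2a-207, a model of 530 bases whose annotation is incomplete at its ends, so a sizeable part of the Camk2a level in TPM rests on a fragment. Among complete coding transcripts Camk2a-203 held 85.0% ± 0.257 (SD, n = 2). Leaving out incomplete models lowered the alpha to beta ratio to 3.25 ± 0.265 and raised Camk2n1 per Camk2a to 0.738 ± 0.0295.

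Camk2d and Camk2g were divided among many models. Camk2d-206 led Camk2d with 32.5% and 31.6%, and Camk2d-226 was next among complete coding models with 12.1% and 15.0%. In Camk2g, the incomplete models Camk2g-212 (19.8% and 18.9%) and Camk2g-204 (10.3% and 14.0%) stood beside Camk2g-201 and Camk2g-203. Camk2d has 28 annotated transcripts and Camk2g has 17, more than any other member.

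Outside kinase II, 1 transcript led each gene with several models, and for Camk4, Camkk1 and Camkk2 its share was lower in the second table. Camkk1-201 held 89.9% and 94.0% of Camkk1, Camkk2-201 held 78.1% and 74.7% of Camkk2, and Camkv-201 held 77.7% and 81.9% of Camkv, where the intron-retaining Camkv-202 took 16.9% and 12.2%. In the second table Camkv-201 held 80.7% and 80.0% and Camkk2-201 held 65.1% and 53.4%. There, Camkk1-201 held 70.7% and 75.7%, with Camkk1-203, an intron-retaining model, at 22.5% ± 3.58 (SD, n = 2). For Camk4 the tables differed: Camk4-201 held 99.2% and 99.0% in the first and 72.1% and 67.8% in the second. In the second, Camk4-203, a model annotated as a target of nonsense-mediated decay and listed at 0 in the first table, took 17.7% and 23.3%.

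Exon use was summed over models: the TPM of models that hold an exon, as a share of those that hold it or skip it. These shares depend on how each quantifier divides reads among models that share most of their sequence, and no count of reads across the exon junctions was used. In 7 of the 10 genes 26 coding exons were held by some annotated models and skipped by others. For 24 of them the models with the exon and those without it each averaged at least 1 TPM in 1 of the tables.

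Linker exons differed in use between the beta, delta and gamma genes. In Camk2b the 75 nt exon was in 97.7% ± 0.234, the 72 nt exon shown above in 99.9% ± 0.0183 and the 45 nt exon in 97.7% ± 0.217 of the level (SD, n = 2). A 33 nt exon of Camk2b that lies upstream of the linker, and matches that of Camk2d at 7 of 33 letters, was in 0.0281% ± 0.0398 of the level in the first table and 1.97% ± 0.147 in the second. Further beta exons of 114 and 129 nt each stayed below 1% on average in the first table and below 2% in the second. In Camk2d the 60 nt counterpart was in 74.2% and 75.8%, and the 42 nt exon in 58.3% and 51.2%. In Camk2g the 69 nt counterpart was in 40.4% and 37.7%, while its 45 nt exon is in all 9 annotated models that cover it. So the long linker exon was near complete in beta and was skipped in part of the delta and gamma level, in both mice and both tables.

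The nuclear localisation exon was used to different degrees. In Camk2d, where it defines the form known as delta B, it was in 0.529% and 0.990% of the level, and in 1.21% and 2.33% in the second table. The Camk2d models with the exon summed to only 0.20 and 0.47 TPM in the first table, below the 1 TPM used here for expressed genes. In Camk2g, whose exon is alike in 26 of 33 letters, it was in 52.1% and 44.7%, and in 61.3% and 58.9% in the second table. In Camk2a, where it defines alpha B, it was in 13.6% and 14.0%, and in 12.2% and 13.2% in the second table. The order gamma, alpha, delta therefore held in each mouse and each table. In TPM, models with the exon summed to 121 and 106 for Camk2a, so that alpha transcripts with this exon were more abundant than all Camk2d transcripts. In Camk2a the use of the exon cannot be told apart from other differences between the models, which also differ outside the coding region. Camk2a-201, with the exon, is 3244 bases long with 1467 coding bases. Camk2a-203, without it, is 4970 bases long with 1434 coding bases.

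The pair of 73 nt exons of Camk2d was used unequally. The upstream exon was in 83.4% of the level in replicate 1 and 78.5% in replicate 2, and the downstream exon in 16.6% and 21.5%. The second table gave 16.6% and 22.6% for the downstream exon. In both tables, which quantify the same libraries, the share of the downstream exon was higher in replicate 2. That exon is held by 2 models, at 3.56 and 1.90 TPM in replicate 1 and at 6.17 and 2.77 TPM in replicate 2. The deposited interval of each model overlapped between the mice.

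Several Camk2d and Camk2g shares depended on models that are incomplete or do not code for protein. Among complete coding transcripts the 42 nt exon of Camk2d was in 78.6% and 74.3%, and the 69 nt exon of Camk2g in 62.2% and 58.5%. The nuclear localisation exon of Camk2g was in 45.6% and 38.5% of the level of complete models. No complete model holds the 63 nt exon of Camk2g, which was in 35.9% and 37.3% of the level over all models. The 114 nt exon of Camk2g was in 2.31% and 1.37% among complete models and in 14.0% and 16.8% over all models.

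**Figure D3:**
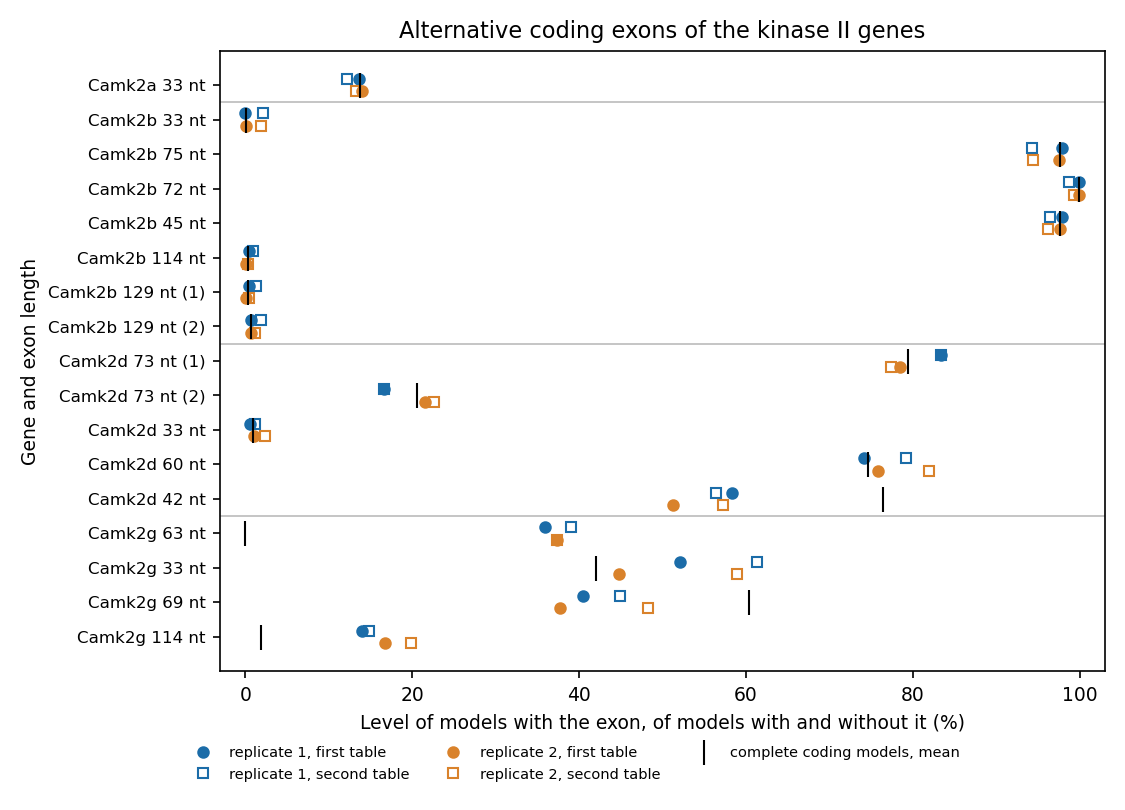
Share of each gene's level in models that hold an alternative exon, in percent, with 1 row per exon, filled circles for the first table, open squares for the second, colours for the mice and bars for the mean over complete coding models. The linker exons of 75, 72 and 45 nt in Camk2b lie above 94% in every case, the 33 nt exon of Camk2d lies below 3%, and the 63 and 114 nt exons of Camk2g have their bars at 0% and 1.84%, left of their other points.

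Models that keep an intron, and so do not encode the full protein, took a visible part of some members. Their share in replicate 1 and replicate 2 was 22.3% and 18.9% in Camk2d, 16.9% and 12.2% in Camkv, 10.1% and 5.99% in Camkk1, 5.02% and 3.03% in Camk2g, 3.26% and 2.05% in Camkk2, and 0.360% and 0.266% in Camk2a. The share was lower in replicate 2 in 6 of the 6 genes with such models, and again in 6 of 6 in the second table. It was also lower in replicate 2 in 79.6% of 4735 expressed genes with such models, and in 75.5% in the second table. The members therefore moved as most genes did. Malat1, a long RNA that stays in the nucleus, was also lower there, at 5827 and 2725 TPM, a log2 ratio of -0.95, and Neat1 and Kcnq1ot1 had log2 ratios of -1.04 and -0.88. The part of nuclear RNA in these shares was not tested.

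**Figure D4:**
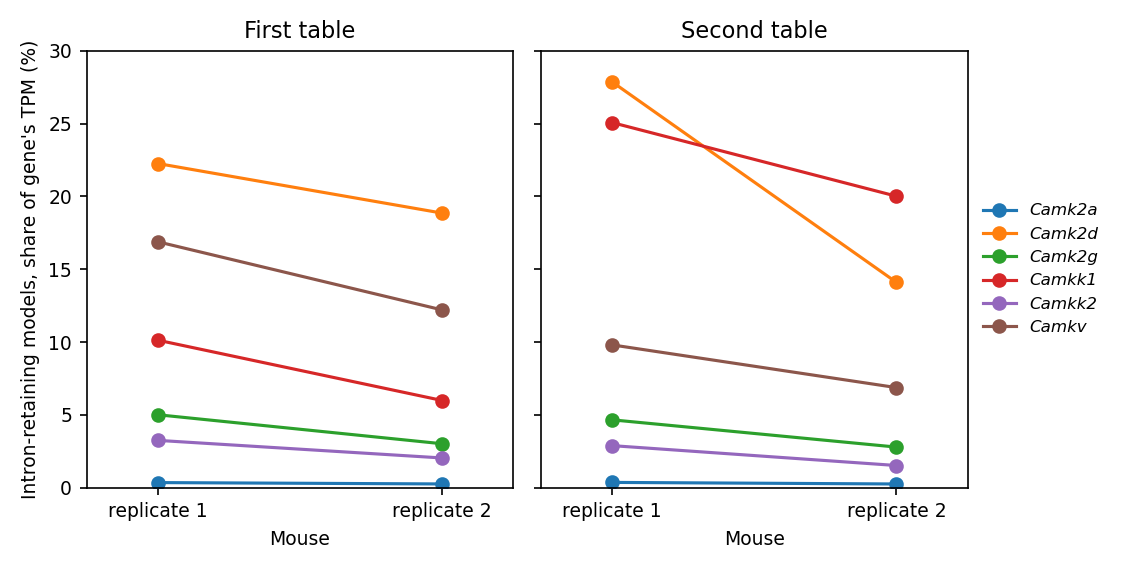
Share of each gene's TPM in intron-retaining models, in percent, in replicate 1 and replicate 2, with the first transcript table on the left and the second on the right. Every gene is lower in replicate 2, with Camk2d at 22.3% and 18.9% in the first table and at 27.9% and 14.1% in the second.

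The mice were compared by the log2 ratio of replicate 2 over replicate 1, from expected counts scaled to library size by TMM (a trimmed mean over genes). No member differed by 1.5-fold or more, 0 of 10, beside 3.08% of the 12613 genes that averaged 100 counts or more. None differed by 2-fold, beside 0.706% of those genes. The members' median log2 ratio was 0.09 and that of all genes tested 0.04. On this scale 9 members were higher in replicate 2 and Camk4 was lower. The share of all genes tested that were higher is not given, but their median was also above 0. Relative to that median, Camk2a (-0.0173), Camkk2 (-0.00239) and Camk4 (-0.149) were lower. The levels in TPM, by contrast, were lower in replicate 2 for 8 members, because TPM as deposited put the median of all genes tested at -0.19.

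Camk2d differed most. Its counts were 2912 and 4685, a log2 ratio of 0.49 with a 95% counting interval of 0.43 to 0.56, or 1.41-fold. Of all genes tested, 4.65% had a larger ratio in either direction. The difference lay mostly in the coding transcripts, whose summed TPM was 35.1 in replicate 1 and 46.3 in replicate 2, while intron-retaining models were at 10.4 and 11.0 TPM. Camk2n2 was next, with counts of 1644 and 2429, a log2 ratio of 0.37 (0.28 to 0.46) and 8.97% of genes beyond it. Among the marker lists with an expressed gene, the median log2 ratios were between -0.15 for the thalamus and 0.15 for the hippocampus. The hippocampal median rests on 2 tested genes that went opposite ways, Prox1 at -0.11 and Wfs1 at 0.41. The part of the marked cells and regions in these differences was not tested. Of the members, Camkv followed at 0.25 (0.21 to 0.29) and Camk2b at 0.16 (0.13 to 0.18). These intervals cover counting error only and leave out the spread between mice.

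The other members were closer. Camk2a was at 0.02 (0.01 to 0.04), and 89.9% of genes had a larger ratio. Camk2n1 was at 0.10, Camk2g at 0.08, Camkk1 at 0.06 and Camkk2 at 0.04, and Camk4 was at -0.11 (-0.17 to -0.05). The interval of Camkk1 included 0. Scaling by the spike-in RNAs moved the median of all genes to -0.42 and turned 8 of the 9 positive members negative, with Camk2n2 at -0.10. Camk2d stayed positive at 0.03. Relative to the median of all genes, Camk2d was at 0.45 and Camk2n2 at 0.33 under TMM, DESeq2 and spike-in scaling. These scalings differ by a constant per library, which the median removes, so their likeness was fixed in advance. The TPM as deposited gave 0.50 for Camk2d and 0.31 for Camk2n2. The second quantification, of the same libraries, gave 0.46 and 0.34.

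**Figure D5:**
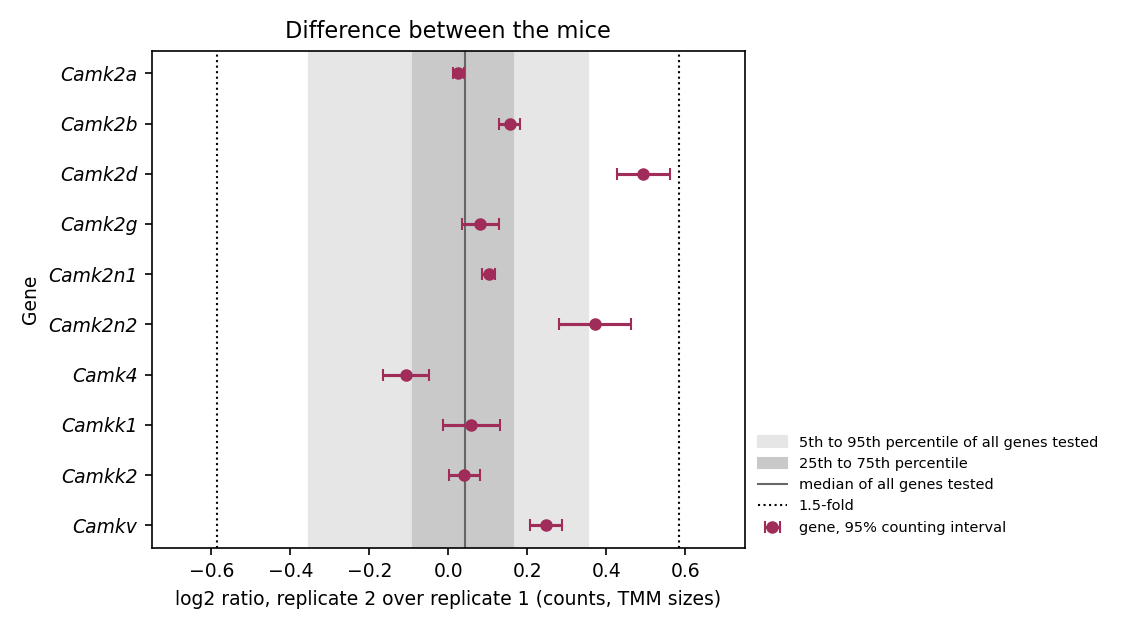
The log2 ratio of replicate 2 over replicate 1 of each gene, with its 95% counting interval, over bands for the 25th to 75th and the 5th to 95th percentile of 12613 genes. Camk2d (0.49) and Camk2n2 (0.37) lie beyond the 95th percentile of 0.35, and no gene reaches the dotted 1.5-fold lines.

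The TPM of the second quantification was at least 1.5-fold above that of the first for 7 of 10 members, beside 65.8% of 14518 expressed genes. Its ratio to the first ranged from 1.34 in Camk2n2 to 1.90 in Camkk2, around a median of 1.56 for all expressed genes. Relative to that median, 0 of 10 members differed by 1.5-fold, beside 10.3% of genes. Levels are therefore comparable within a table and not between the tables.

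Other genes of the pathway came from lists chosen by role. Of 16 other CaM kinase genes 14 were expressed, with a median of 27.2 TPM, below 10 of the 10 members. Dclk1, a doublecortin-like kinase, was highest at 414 TPM and Stk33 was lowest at 0.295 TPM on 8 and 10 counts. The kinase I genes, targets of Camkk1 and Camkk2, lay lower than Camk4, with Camk1d at 50.7 and Camk1 at 46.1 TPM. All 12 genes of phosphatases and of proteins that regulate them were expressed, with a median of 95.5 TPM. They ranged from Ppm1f, a phosphatase that acts on kinase II, at 18.8 to Ppp3ca, a catalytic subunit of calcineurin, at 399 TPM.

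All 13 genes of kinase II substrates and partners were expressed, with a median of 80.6 TPM. Dlg4, which encodes the scaffold PSD-95, was highest at 383 TPM and Rem2 lowest at 2.45 TPM. Grin2b, the NMDA receptor subunit that holds kinase II at the synapse, had 119 TPM. The 14 genes downstream of the kinase kinases and kinase IV had a median of 29.4 TPM, from Prkaa1 at 7.95 to Mef2c at 310 TPM. Creb1, a target of kinase IV, had 22.4 TPM. In all 4 lists 0 genes were 1.5-fold apart between the mice, and the median log2 ratios ran from 0.02 to 0.08, beside 0.04 for all genes tested.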

How the data were processed

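Total RNA-seq from the left cerebral cortex of 2 mice was used, 1 library each. The labels name separate animals and share 1 donor record, so the spread between these samples may be partly technical. Expected counts and TPM per gene and transcript, the percent of its gene each transcript takes, and the bounds of an interval on TPM (a signal value) were deposited by the authors. Per the file headers, the other transcript table gives estimated counts and TPM. The build is mm10, per the labels. Quantifiers and the strand setting are not stated in the sources read for this work. Reads were matched to the C57BL/6J reference, and loss of reads from the CAST/EiJ allele was not tested.

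The rule for members used their symbols and no measured value. Members, transcripts and lists were nevertheless chosen with earlier results of these data known. Named are the 10 members, their leading transcripts and those with at least 10% of TPM in both mice in either table, and of each list the highest, the lowest and up to 2 others. Symbols, coordinates and exons came from GENCODE M21, in which all 10 members matched. Expressed means at least 1 TPM in both libraries. Ratios used rounded expected counts, edgeR 4.0.16 TMM sizes, a prior count of 2 and genes that averaged 100 counts or more. Intervals are 95% exact Clopper-Pearson intervals of replicate 2's share of a gene's reads. The intervals cover counting error only. These reads carry no molecular identifiers, so duplicate reads could not be told apart and the intervals may be too narrow. DESeq2 1.42.0 gave size factors, under R 4.3.3 and Python 3.11.15, and the ratio step was tested on simulated data. With 1 group no test was run.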

Additional observations from a re-analysis of the deposited data

How the results depend on the processing

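Complete coding transcripts and the ratio relative to the median were chosen as alternatives after seeing the data. No ratio between members crossed 1 under any setting, and the order of the kinase II shares held. A share has no direction, so for shares only the size could change. The leading transcript of Camk2g depended on the mouse, with Camk2g-201 in replicate 1 and Camk2g-203 in replicate 2. In expected counts the kinase II shares were 71.6% (Camk2a), 18.7% (Camk2b) and 6.53% (Camk2g), and the ratios 0.483 (Camk2d/Camk2g), 28.8 (Camk2n1/Camk2n2), 0.678 (Camk2n1/Camk2a), 3.31 (Camkk2/Camkk1) and 2.10 (Camkv/Camk4). Counts are not corrected for length, and the Camk2n1 transcript is the longer of the inhibitors. The second table gave shares of 67.2% (Camk2a) and 12.1% (Camk2g), and ratios of 9.21 (Camk2n1/Camk2n2) and 3.52 (Camkk2/Camkk1). Protein-coding transcripts alone gave 71.3% (Camk2a), 9.27% (Camk2g) and 2.77 (Camkk2/Camkk1). Complete coding transcripts gave 21.2% (Camk2b), 7.29% (Camk2g), 3.25 (Camk2a/Camk2b) and 0.738 (Camk2n1/Camk2a). The cause of each was not tested. The number of members at least 1.5-fold apart between quantifications fell from 7 to 0 relative to the median. The number of members at least 1.5-fold apart between mice was 0 under every setting. Leaving out a mouse gives the other mouse's value, printed in the report. No paired analysis was possible because both mice are in 1 group. At 1644 counts or more per member, counting error is small, and 2 mice limit every error given.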

Other observations

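A few values outside the rule for named transcripts were picked after they were seen. Camk2a-202, a coding model of 1734 bases with 567 coding bases, had 11.5 and 5.55 TPM in the first table and 176 and 150 TPM in the second. It made up 0.980% and 0.556% of Camk2a in the first table and 10.5% and 9.59% in the second. The 32 nt exon of Camkk2 was in 0.897% and 0.585% of the level in the first table and in 7.18% and 15.0% in the second. Of the members' transcripts at 1 TPM or more, 6 of 54 in replicate 1 and 5 of 48 in replicate 2 had a deposited TPM above their own deposited interval, and 1 in replicate 1 had one below it. No such count over all transcripts is given, so these numbers mark no trait of the members. Camk2b-209, at 245 and 242 TPM, lay above 213 to 233 in replicate 1 and above 226 to 237 in replicate 2. Camk2a-203, Camk2n1-201, Camk4-201 and Camkk2-201 also lay above in both mice, and Camk2b-210, at 6.56 TPM in replicate 1, lay below 10.1 to 29.8. The reason was not tested.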
